A study of Rattus norvegicus with 30 samples.

Results

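The 3 genes described here, ENSRNOG00000029286, ENSRNOG00000038616 and ENSRNOG00000006237, were the strongest responders to valproate (VPA) in rat brain that moved in the same direction in both strains studied. They are 3 of the 32586 genes in the count table, and all 3 were among the 15885 with enough counts to be tested. They were chosen on the measured response itself. Among 3980 genes that differed between exposed and control pups, reached a mean log2 CPM of 2 and had the same sign in both strains, the first pair had the highest log2 fold changes and ENSRNOG00000006237 the lowest. CPM are counts scaled to a common library size. The next gene on the higher side, ENSRNOG00000032720, had a log2 fold change of 0.94, just under the 1.0 of ENSRNOG00000038616. The next on the lower side, ENSRNOG00000016043, was at -0.77 against -1.0 for ENSRNOG00000006237. The response to VPA is therefore given below as a description, without a test.

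VPA is an antiseizure drug that raises GABA, dampens repetitive firing and inhibits class I and class IIa histone deacetylases. Inhibition of these enzymes leaves histones more acetylated, and in cells so treated some genes rise and others fall in transcription. Exposure before birth is linked to malformations and to later disorders of cognition and behaviour. GAERS (Genetic Absence Epilepsy Rats from Strasbourg) are an inbred strain with spontaneous absence seizures, generalised spike-and-wave discharges of the thalamus and cortex, and NEC (Non-Epileptic Controls) are the inbred strain without them. The files pair no identifier with a gene symbol, so the function of the 3 genes is not stated.

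Total RNA from brain tissue of 30 pups was sequenced in bulk. In NEC 8 pups were controls and 7 were exposed to VPA, and in GAERS likewise 8 and 7. All that the labels give for a pup is brain as its tissue, its strain and whether it was exposed to VPA. Its age, sex, litter, brain region, dose and the time and route of exposure are not given, so p-values measure the spread between these samples, and litters cannot be told apart from exposure. The tissue label could not be checked against cell markers without symbols, and in bulk tissue fewer cells of a type and less RNA per cell cannot be told apart. Library totals ran from 26963266 to 56568656 counts. In 4 libraries the median correlation with their group was lowest: 0.976 for NEC control 3, 0.982 for GAERS control 1, 0.984 for GAERS VPA 4 and 0.985 for NEC VPA 7. NEC control 3 also had 17.3% of its counts in its 100 most abundant genes, against 15.1% to 15.6% in the other NEC controls. Results that rest on these libraries are given with and without them.

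ENSRNOG00000029286 was low in controls and went up more than any other tested gene. In NEC controls it was at 0.669 CPM in the lowest pup, 0.913 at the median and 1.98 in the highest. In exposed NEC pups the same values were 6.16, 17.9 and 32.5 CPM, so that every exposed pup lay above every control. Across all tested genes this full separation upward was found in 1.72% in NEC. In GAERS controls the gene was at 0.328, 0.968 and 3.65 CPM, and in exposed GAERS pups at 3.60, 5.30 and 54.8 CPM. In GAERS the groups touched: GAERS VPA 1, at 3.60 CPM, lay just under GAERS control 3, at 3.65 CPM, and the other 6 exposed pups lay above all 8 controls. In raw counts these levels are 13 to 143 in control libraries and 107 to 1768 in exposed ones. The log2 fold change was 3.85 ± 0.42 (SE) averaged over the strains, 4.23 in NEC and 3.46 in GAERS, the highest average of 15885 genes. It was 3.35 without GAERS VPA 4. For scale, 13.9% of tested genes were called higher with VPA and 15.2% lower by edgeR (adjusted p under 0.05).

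ENSRNOG00000038616 was the steadiest of the 3 and roughly doubled. NEC controls ran from 9.61 through a median of 11.4 to 19.97 CPM, and exposed NEC pups from 20.7 through 22.8 to 27.9 CPM. The highest control was NEC control 3, and the other 7 were at 12.4 CPM or less. GAERS controls ran from 9.03 through 10.8 to 12.2 CPM, and exposed GAERS pups from 18.1 through 23.4 to 27.3 CPM. No exposed pup overlapped a control of its own strain, a separation upward that 0.472% of genes had in GAERS. The log2 fold change was 1.0 ± 0.08 (SE), with 0.92 in NEC and 1.08 in GAERS. It ranked 27th from the top of all tested genes. The genes above it, other than ENSRNOG00000029286, were scarcer, were not called or differed in sign between strains.

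ENSRNOG00000006237 went down in exposed pups. It was at 6.17, 10.3 and 15.03 CPM (lowest, median, highest) in NEC controls and at 2.63, 4.54 and 6.92 CPM in exposed NEC pups. It was at 7.68, 9.33 and 15.4 CPM in GAERS controls and at 2.60, 6.26 and 8.78 CPM in exposed GAERS pups. The groups overlapped in both strains. In NEC the overlap was NEC VPA 6, at 6.92 CPM, above NEC control 2, at 6.17 CPM. In GAERS the exposed pups 2 and 7, at 8.28 and 8.78 CPM, lay above the lowest controls. Every exposed pup was below every control in 2.74% of all genes in NEC and in 0.648% in GAERS, and this gene was not among them in either strain. Its log2 fold change was -1.0 ± 0.15 (SE), with -1.20 in NEC and -0.80 in GAERS. It ranked 14th from the bottom of all tested genes on average, 13th in NEC and 43rd in GAERS.

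**Figure D1:**
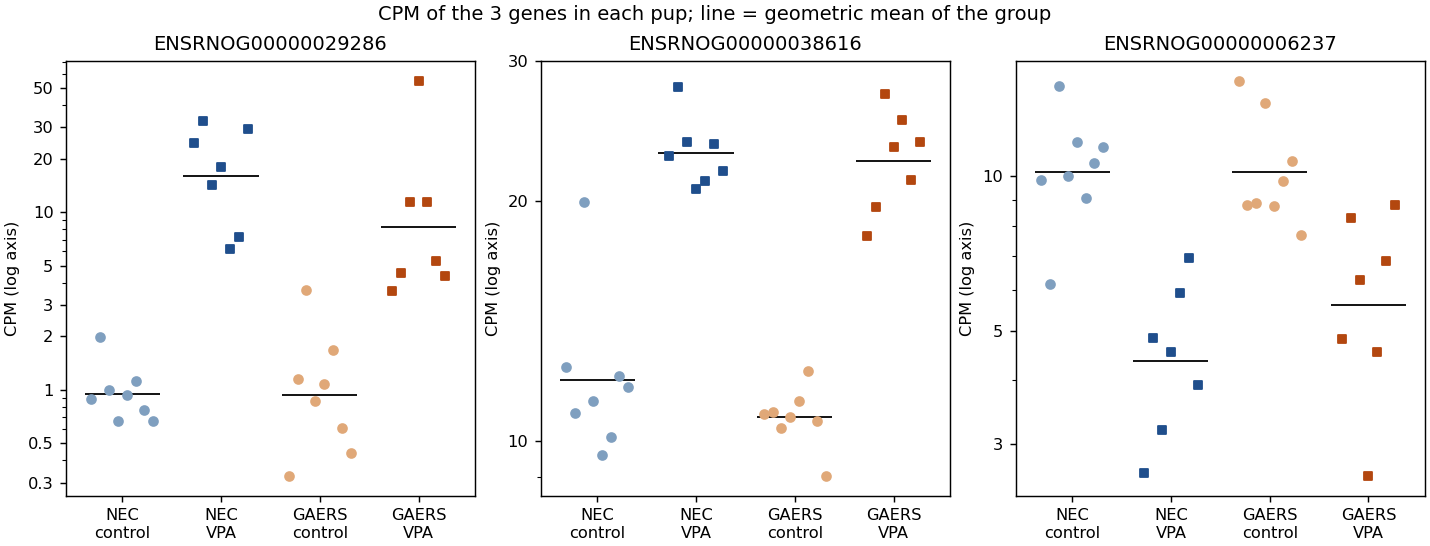
CPM of the 3 genes in each of 30 pups, on log axes with a different range for each gene. Each point is a pup (circles control, squares exposed) and each line the geometric mean of a group. ENSRNOG00000029286 spans 3.60 to 54.8 CPM in exposed GAERS pups, while ENSRNOG00000038616 spans 18.1 to 27.3 CPM in the same pups.

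The 3 genes differed widely in how much pups of 1 group varied. The SD of log2 CPM about the group means was 0.997 for ENSRNOG00000029286, which only 84 of the tested genes exceeded. It was 0.452 for ENSRNOG00000006237, at the 90.3rd percentile of all genes, and 0.216 for ENSRNOG00000038616, at the 62.9th percentile, against a median of 0.167. ENSRNOG00000029286 was the least even in exposed GAERS pups, with an SD of 1.37, and the most even in NEC controls, with 0.483. ENSRNOG00000038616 had its widest spread in NEC controls, 0.324, the group that holds NEC control 3, and its narrowest in GAERS controls, 0.122.

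Strain made no difference that passed the test for any of the 3, with or without VPA. This comparison was not used in choosing them. Between control pups, GAERS minus NEC was 0.30 ± 0.64 (SE, log2) for ENSRNOG00000029286 (edgeR adjusted p = 0.823), -0.19 ± 0.11 for ENSRNOG00000038616 (edgeR adjusted p = 0.310) and -9.7e-05 ± 0.20 for ENSRNOG00000006237 (edgeR adjusted p = 0.9997). Of all tested genes 8.66% were called in this comparison. Between exposed pups, where 12.3% of genes were called, the differences were -0.47 ± 0.51 for ENSRNOG00000029286 (edgeR adjusted p = 0.580), -0.03 ± 0.11 for ENSRNOG00000038616 (edgeR adjusted p = 0.896) and 0.40 ± 0.23 for ENSRNOG00000006237 (edgeR adjusted p = 0.255).

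For ENSRNOG00000029286 the comparison between exposed strains changed when a single pup was left out. Without GAERS VPA 4 exposed GAERS pups were lower than exposed NEC pups by a log2 difference of -1.48 (edgeR adjusted p = 0.0162). Without all 4 libraries that stood apart the difference was -1.33 (edgeR adjusted p = 0.0268). Exposed NEC pups had a median of 17.9 CPM and exposed GAERS pups 5.30 CPM, while GAERS VPA 4 was at 54.8 CPM. Leaving out the highest pup of the lower group, with its value known, must widen the difference and reduce the spread. These calls therefore do not show a strain difference.

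Whether VPA acted differently in the strains was tested as an interaction. It was -0.77 ± 0.82 (SE, log2, GAERS response minus NEC response) for ENSRNOG00000029286 (edgeR adjusted p = 0.770), 0.16 ± 0.16 for ENSRNOG00000038616 (edgeR adjusted p = 0.749) and 0.40 ± 0.31 for ENSRNOG00000006237 (edgeR adjusted p = 0.684). Over all genes edgeR called 0 of 15885 (0%) at adjusted p, with 1278 at an unadjusted p under 0.05, DESeq2 called 2 and limma-voom with quality weights 140. None of the 3 was among those calls.

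The next question was whether the responses of the 3 genes track each other from pup to pup. Each exposed pup was set against the mean log2 CPM of the controls of its strain. GAERS VPA 4 had the largest response of its group in both ENSRNOG00000029286 (5.77) and ENSRNOG00000006237 (-1.95), but rank 4 of 7 in ENSRNOG00000038616 (1.12). In NEC the pups 5 and 6 had the smallest responses in both ENSRNOG00000029286 (2.63 and 2.86) and ENSRNOG00000006237 (-0.78 and -0.56). NEC VPA 2 was the highest of its group for ENSRNOG00000029286 (5.02) and for ENSRNOG00000038616 (1.22), yet rank 5 of 7 in the fall of ENSRNOG00000006237 (-1.07). GAERS VPA 3 had the largest response of ENSRNOG00000038616, 1.35, and GAERS VPA 1 the smallest, 0.75.

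Among the 14 exposed pups, those with more ENSRNOG00000029286 than their group tended to have less ENSRNOG00000006237. With each value centred on its group mean, Pearson's r was -0.744 (permutation within groups, p = 0.00589, adjusted p = 0.106 over 18 correlations) and Spearman's rho -0.604 (permutation p = 0.0299, adjusted p = 0.397). The relation thus did not pass adjustment. It was negative in each exposed group, with r = -0.618 in NEC (exact permutation p = 0.145) and r = -0.817 in GAERS (exact permutation p = 0.0298, adjusted p = 0.268). Without the farthest pups in ENSRNOG00000029286, NEC VPA 5 and GAERS VPA 4, r was weaker, at -0.460 (permutation p = 0.16). Leaving them out also narrows the range of that gene, so this cannot show that the relation rests on those pups. Without GAERS VPA 4 alone r was -0.540 (permutation p = 0.0786, adjusted p = 0.325). Without the 4 libraries that stood apart it was -0.536 (12 exposed pups, permutation p = 0.103, adjusted p = 0.462). Without GAERS VPA 1 r was -0.834 (permutation adjusted p = 0.025). The 16 controls gave r = -0.451 (permutation p = 0.0859, adjusted p = 0.373) and rho = -0.503 (permutation p = 0.0662, adjusted p = 0.397). Without GAERS control 1 and GAERS control 3 that r was -0.299.

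No relation of ENSRNOG00000038616 with either of the others passed the test. In exposed pups its r with ENSRNOG00000029286 was 0.467 (permutation p = 0.13, adjusted p = 0.373; rho = 0.525, permutation p = 0.0577, adjusted p = 0.397) and 0.553 without the 2 farthest pups. That r was 0.571 without GAERS VPA 4 (permutation p = 0.0398, adjusted p = 0.325). Without the 4 libraries that stood apart it was 0.661 (12 exposed pups, permutation p = 0.0204, adjusted p = 0.223), larger in size than the -0.536 of ENSRNOG00000029286 with ENSRNOG00000006237. In controls it was 0.084 (permutation p = 0.656, adjusted p = 0.844). With ENSRNOG00000006237 r was -0.066 in exposed pups (permutation p = 0.84, adjusted p = 0.889). In controls it was 0.467 (permutation p = 0.108, adjusted p = 0.373) and 0.184 without NEC control 3. None of the 18 correlations passed an adjusted p of 0.05 in either measure.

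**Figure D2:**
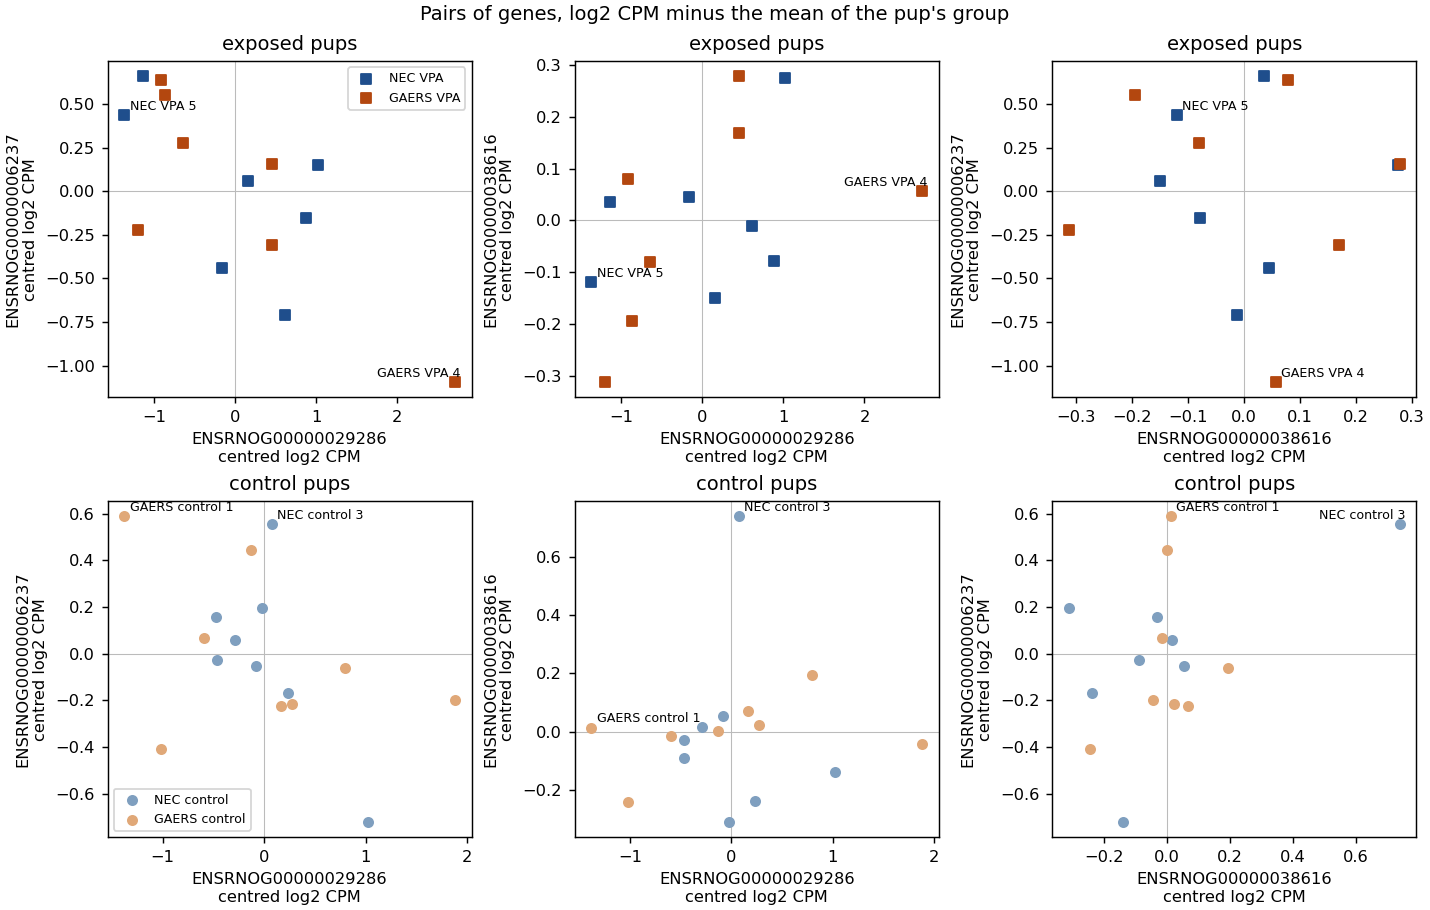
The 3 pairs of genes in exposed pups (top) and control pups (bottom), as log2 CPM minus the mean of the pup's group, each point a pup. GAERS VPA 4 lies at the lower right for ENSRNOG00000029286 with ENSRNOG00000006237, where r was -0.744 over 14 exposed pups, and NEC control 3 lies apart on the axis of ENSRNOG00000038616.

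No relation of the 3 genes with measures of their libraries passed adjustment. Over 30 pups, centred on groups, r with log2 total count was -0.006 for ENSRNOG00000029286, 0.117 for ENSRNOG00000038616 and 0.094 for ENSRNOG00000006237 (permutation adjusted p = 0.97, 0.894 and 0.894 over 6 relations; rho = 0.040, 0.193 and 0.146, permutation adjusted p = 0.84, 0.613 and 0.675). With the counts held by the 100 top genes of a library, as a percentage, r was 0.592 for ENSRNOG00000038616 (permutation p = 0.0385, adjusted p = 0.123) and 0.376 for ENSRNOG00000006237 (permutation p = 0.0411, adjusted p = 0.123), with rho = 0.242 and 0.274 (permutation adjusted p = 0.611 for both). The 2 values of r fell to 0.122 and 0.109 without NEC control 3 and NEC VPA 1. Those pups were the farthest in this measure. Leaving them out also narrows its range, so this cannot show that the relations rest on them. For ENSRNOG00000029286 this r was 0.006 (permutation adjusted p = 0.97) and rho 0.042 (permutation adjusted p = 0.84).

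Many other genes moved with the 3 within groups. For each of the 3, its centred log2 CPM was added to the 4 group means in an edgeR model of every other gene, so that differences between groups played no part, and genes with an adjusted p under 0.05 are said to follow it. ENSRNOG00000029286 was followed by 1388 of 15884 genes (8.74%), 561 in the same direction and 827 in the opposite one. ENSRNOG00000038616 was followed by 5133 (32.3%), 2823 and 2310. ENSRNOG00000006237 was followed by 6122 (38.5%), 3044 and 3078. Genes are not independent of each other, and a pattern of variation shared by many genes moved with these counts. The first component of the group-centred values held 25.4% of their variance, and its r with the 3 genes over the 30 pups was -0.455, 0.535 and 0.690 in the order above. With this component as a covariate, an alternative chosen after seeing the data, 301, 2550 and 1104 genes were called.

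**Figure D3:**
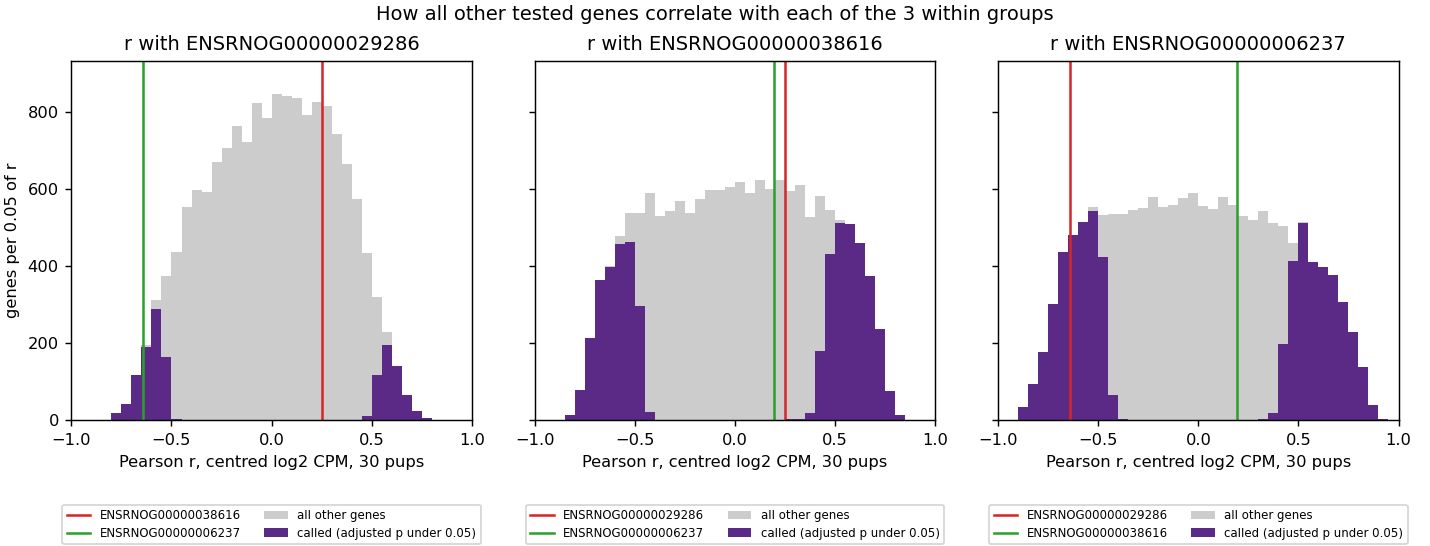
Pearson r of every other tested gene with each of the 3 over 30 pups, after removing group means, in bins of 0.05. Grey bars count all genes, purple bars those called (1388, 5133 and 6122), and coloured lines mark the other 2 of the 3 genes.

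In these fits over all 30 pups ENSRNOG00000029286 and ENSRNOG00000006237 followed each other. The pups are those of the correlations above, which did not pass adjustment, so this is no separate evidence. Per unit of log2 CPM of ENSRNOG00000029286, ENSRNOG00000006237 changed by -0.29 ± 0.07 (SE, log2; edgeR adjusted p = 0.0128), and in the reverse fit the slope was -1.66 ± 0.30 (edgeR adjusted p = 0.000130). Their r of -0.642 lay below that of all but 1.30% of genes correlated with ENSRNOG00000029286. Among genes correlated with ENSRNOG00000006237 it stood out less, below that of all but 7.02%. The reverse fit called 38.5% of all genes, so passing it does not set this pair apart. Without GAERS VPA 4 the first slope was -0.24 (edgeR adjusted p = 0.119), and without the 4 libraries that stood apart the slopes were -0.21 (edgeR adjusted p = 0.252) and -1.02 (edgeR adjusted p = 0.0822). Of 10 settings other than leaving out 1 library, the first slope was not called in 3 and the reverse slope in 2. ENSRNOG00000038616 did not pass with ENSRNOG00000029286 (slope 0.06 ± 0.04, edgeR adjusted p = 0.394) or with ENSRNOG00000006237 (slope 0.11 ± 0.09, edgeR adjusted p = 0.374). It did pass under covariates chosen after seeing the data: with ENSRNOG00000029286 at a slope of 0.14 beside the first component described above (edgeR adjusted p = 0.0285), and with ENSRNOG00000006237 at 0.31 beside ENSRNOG00000029286 (edgeR adjusted p = 0.0222).

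Over all other tested genes, r with ENSRNOG00000006237 was alike in exposed and in control pups. Across 15884 genes, r in the 14 exposed pups and r in the 16 controls, which share no pup, correlated at 0.692. This was computed only for the 3 genes. Whether other genes as close to the first component, with which this gene had an r of 0.690, give a like value was not tested. Fits on exposed pups alone and on controls alone called 2769 and 4077 genes. Leaving out 1 library at a time gave 5058 to 6418, and without the 4 libraries that stood apart 3499 were called, 3349 of them among the 6122. The followers with the strongest r were ENSRNOG00000032871 (r = 0.92, slope 0.45 ± 0.04 SE, edgeR adjusted p = 1.62e-08) and ENSRNOG00000016870 (r = -0.91, slope -0.26 ± 0.03 SE, edgeR adjusted p = 2.24e-07). Both slopes stayed past the threshold under all 41 alternatives run for each.

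ENSRNOG00000032871 varied over less than its leader. It ran from 64.2 through a median of 82.8 to 117 CPM in NEC controls and from 55.5 through 64.8 to 79.0 CPM in exposed NEC pups. In GAERS controls it ran from 75.4 through 76.6 to 101 CPM and in exposed GAERS pups from 55.2 through 79.6 to 92.8 CPM. The groups overlapped in both strains. Averaged over the strains the gene was lower with VPA (log2 fold change -0.21 ± 0.08 SE, by edgeR at an adjusted p = 0.0415). The value was -0.33 in NEC and -0.08 in GAERS. ENSRNOG00000016870 ran the other way, from a median of 75.6 CPM in NEC controls to 96.3 in exposed NEC pups and from 71.7 to 82.0 CPM in GAERS. Its response to VPA was 0.28 ± 0.05 (SE, log2) at an edgeR adjusted p = 7.01e-05.

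ENSRNOG00000016043, the gene just outside the choice on the lower side, was also among the closest followers of ENSRNOG00000006237. It was singled out after its values were seen. Its r was 0.89 over 30 pups, 0.86 in exposed and 0.96 in control pups, with a slope of 0.95 ± 0.09 (SE, edgeR adjusted p = 4.89e-08). It was at 50.7, 95.4 and 163 CPM (lowest, median, highest) in NEC controls and at 23.8, 49.6 and 71.7 CPM in exposed NEC pups. In GAERS the values were 57.8, 78.9 and 137 CPM in controls and 28.2, 63.3 and 79.0 CPM in exposed pups, overlapping in both strains.

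The number of genes called as followers of ENSRNOG00000029286 varied with the pups that were fitted. GAERS VPA 4 was the farthest from its group mean in this gene, so leaving it out also narrows the range. Fits on part of the pups also have fewer samples. The fit on exposed pups alone called 601 genes and that on controls alone 0 (edgeR, with 2541 at an unadjusted p under 0.05). Without GAERS VPA 4 the count was 60, all of them among the 1388, without GAERS control 1 it was 369, and without NEC control 3 it was 2934. Without the 4 libraries that stood apart it was 4. With ENSRNOG00000006237 as a covariate, chosen after seeing the data, it was 1. Across genes the r in exposed and the r in control pups correlated at 0.336.

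Among genes at or above a mean log2 CPM of 2, the closest followers of ENSRNOG00000029286 were ENSRNOG00000004927 (r = 0.78, slope 0.10 ± 0.02 SE, edgeR adjusted p = 0.00314) and ENSRNOG00000007099 (r = -0.79, slope -0.11 ± 0.02 SE, edgeR adjusted p = 0.00271). Both were called for VPA averaged over the strains, with log2 fold changes of 0.15 ± 0.05 (SE, edgeR adjusted p = 0.0186) for ENSRNOG00000004927 and -0.16 ± 0.05 (SE, edgeR adjusted p = 0.0176) for ENSRNOG00000007099. In NEC and GAERS they were 0.17 and 0.12 for ENSRNOG00000004927, and -0.31 and -0.0099 for ENSRNOG00000007099. ENSRNOG00000004927 had medians of 21.4 and 23.5 CPM in control and exposed NEC pups and of 21.7 and 22.7 CPM in GAERS. ENSRNOG00000007099 had medians of 50.7 and 39.0 CPM in NEC and of 46.6 and 46.2 CPM in GAERS. Without the 4 libraries that stood apart neither passed (edgeR adjusted p = 0.0815 for both).

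**Figure D4:**
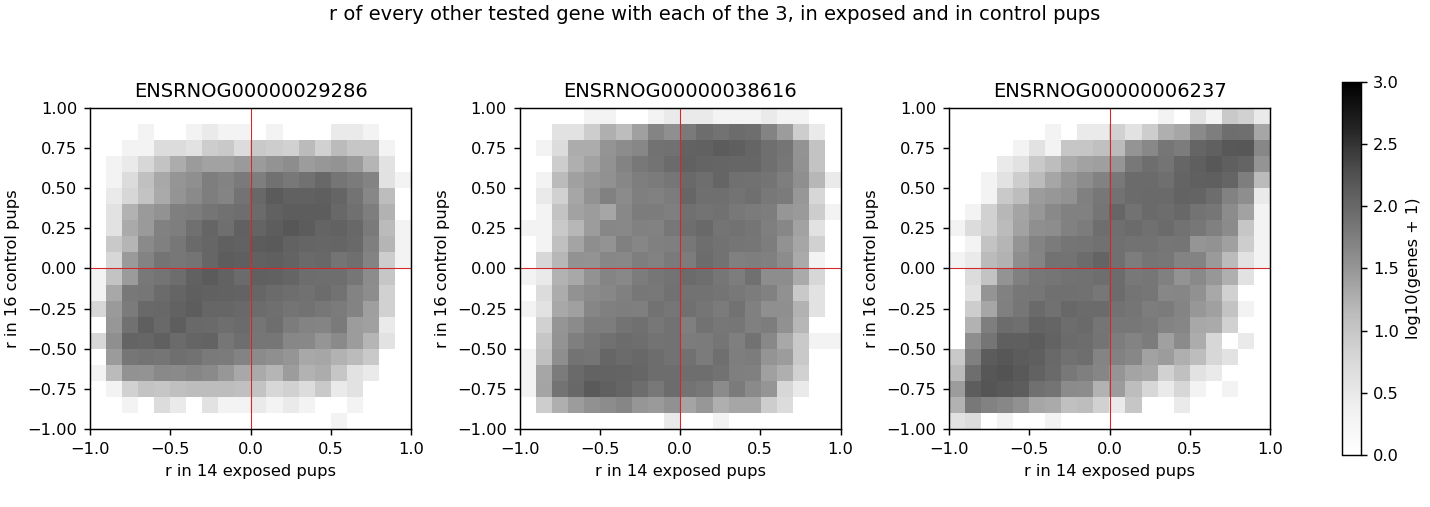
For each of the 3 genes, r of every other tested gene in 14 exposed pups (x axis) and in 16 control pups (y axis), darker squares holding more genes. The cloud runs along the diagonal for ENSRNOG00000006237, where the 2 sets of r correlated at 0.692, and is rounder for the others, at 0.336 and 0.311.

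The calls of followers of ENSRNOG00000038616 depended on 1 control. That pup was the farthest from its group mean in this gene, so leaving it out also narrows the range. Without NEC control 3, which had 19.97 CPM of this gene against at most 12.4 in the other NEC controls, edgeR called 0 of 15868 genes, with 2203 at an unadjusted p under 0.05. Exposed pups alone gave 19 called genes and controls alone 5437. By the same rule as above its named followers were ENSRNOG00000049819 (r = 0.85, slope 0.56 ± 0.08 SE, edgeR adjusted p = 0.000147) and ENSRNOG00000045742 (r = -0.83, slope -0.66 ± 0.11 SE, edgeR adjusted p = 0.000193). Without NEC control 3 their slopes were 0.36 (edgeR adjusted p = 0.146) and -0.70 (edgeR adjusted p = 0.134). ENSRNOG00000049819 was itself at 30.7 CPM in NEC control 3 and at 18.6 to 21.7 CPM in the other NEC controls.

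In the main fits the response of the followers to VPA differed between the 3 genes. Followers were found from differences within groups and the VPA response from differences between them, but both rest on the same 30 pups, and no test was made. Of the 561 genes that followed ENSRNOG00000029286 in the same direction, 301 (53.7%) were called higher with VPA and 4 lower. Of the 827 that ran opposite, 596 (72.1%) were called lower and 0 higher. Without GAERS VPA 4, 5 of 9 same-direction followers were called higher and 40 of 51 opposite ones lower. Of the 3044 same-direction followers of ENSRNOG00000006237, 1184 (38.9%) were called lower and 33 higher. Among the 3078 opposite ones, 1026 (33.3%) were called higher and 39 lower. These results are not independent of those for ENSRNOG00000029286, because most followers of ENSRNOG00000029286 also followed ENSRNOG00000006237. Its 561 same-direction followers, those of ENSRNOG00000029286, included 458 (81.6%) that ran opposite to ENSRNOG00000006237. Its opposite followers, 826 without ENSRNOG00000006237 itself, included 713 (86.3%) that ran with ENSRNOG00000006237. For ENSRNOG00000038616, whose followers were not called without NEC control 3, the shares were close to the background of 13.9% higher and 15.2% lower or below it. They were 9.56% higher and 14.3% lower among same-direction followers, 9.39% and 13.9% among opposite ones. This changed with the first component as a covariate, chosen after seeing the data. Of 1337 same-direction followers 374 were then called higher with VPA and 18 lower. Of 1213 opposite ones 14 were called higher and 479 lower.

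A scarce gene, ENSRNOG00000020536, followed ENSRNOG00000029286 more closely than any other. It was singled out after its values were seen, for its adjusted p, the smallest of that fit. It had 0 to 9 counts in control libraries and 4 to 101 in exposed ones, with the 101 in GAERS VPA 4 and the 9 in GAERS control 3, which were also the highest pups of their groups for ENSRNOG00000029286. Its slope was 0.95 ± 0.09 (SE, edgeR adjusted p = 1.26e-07), so that it changed nearly in proportion, and r was 0.96 in exposed pups and 0.56 in controls, where counts are few. Leaving out 1 library at a time gave slopes of 0.91 to 1.04, each past the threshold. It was the only gene that still followed ENSRNOG00000029286 with ENSRNOG00000006237 as a covariate. Its VPA log2 fold change was 3.76 ± 0.47 (SE), second of all tested genes after ENSRNOG00000029286. This is a description without a test. With 0 to 9 counts in controls, the gene passed the filter on low counts only through exposed pups, where it was high. Its mean log2 CPM of -1.21 kept it out of the choice. The positions of the pair were not looked up and the use of strand in counting is not known, so whether the genes share reads was not tested.

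**Figure D5:**
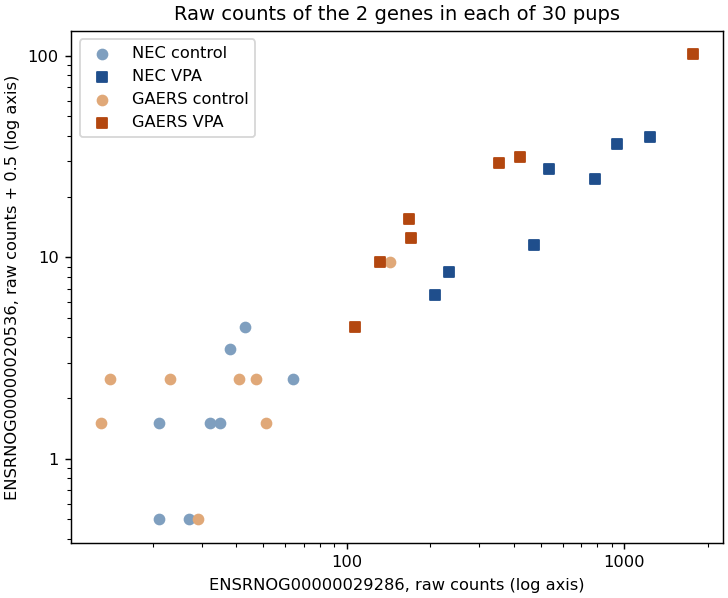
Raw counts of ENSRNOG00000020536 (plus 0.5) against those of ENSRNOG00000029286 in each of 30 pups, on log axes. Counts rise together from controls (0 to 9 and 13 to 143) to exposed pups (4 to 101 and 107 to 1768).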

How the data were processed

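The authors deposited raw counts per Ensembl gene for 30 libraries, whole numbers with no normalization. The submitters' processing notes name FastQC, STAR 2.5 and the rat build Rnor_6.0, also called rn6. How reads were counted, with which annotation and whether by strand is not given in the sources used here. Genes that overlap or have close copies may therefore share reads. A stranded total RNA kit is named per the labels. Groups come from strain and exposure in the labels, and replicate numbers follow the order of deposit.

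The 3 genes and all lists were chosen with earlier results of these data known. Counts were fitted in R 4.3.3 with edgeR 4.0.16: filterByExpr (minimum count 10, minimum total 15), TMM scaling, robust quasi-likelihood fit with 4 group means, Benjamini-Hochberg adjustment over all tested genes, threshold 0.05. Standard errors come from the F statistic. CPM and log2 CPM (prior count 2) use TMM-scaled totals. Follower models add a gene's group-centred log2 CPM and drop that gene. Correlations used exact permutation within 1 group and 100000 resamples within groups otherwise, two-sided (numpy 2.4.6). Alternatives used DESeq2 1.42.0, limma 3.58.1 (trend, and voom with quality weights), RLE and upper-quartile scaling, no filter, prior count 0.5, CPM without log, a depth covariate, leaving out each library, and leaving out 4 libraries that stood apart. The covariates from the first component and from another of the 3 genes were chosen after seeing the data. The models were tested on simulated data.

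Besides the 3 genes, the followers named were those with the highest and lowest r for each, among called genes that reach a mean log2 CPM of 2 and have r of 1 sign in all 4 groups. A table of 47357 RefSeq genes was at hand, but with 0 Ensembl identifiers in it no gene could be named and no marker list or sequence was used.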

Additional observations from a re-analysis of the deposited data

Results flagged for a closer look

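Within each group, 52 sets of values (the 3 genes, 8 others named above, total counts and the percentage of counts in the 100 top genes) were examined for a pup lying apart by Dixon's criterion, and 12 were found. Chance gives about 1 in 20, or 2.6, but the sets reuse the same pups and genes chosen from these data, so the number is no measured excess.

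NEC control 2 was the far pup in 4 sets, at 1.98 CPM of ENSRNOG00000029286 (other NEC controls 0.669 to 1.13), 25.2 CPM of ENSRNOG00000004927 (others 20.7 to 22.1), 42.3 CPM of ENSRNOG00000007099 (others 49.9 to 54.5) and 91.0 CPM of ENSRNOG00000016870 (others 68.0 to 77.6). NEC control 3 was far in 4 sets, at 19.97 CPM of ENSRNOG00000038616 (others 9.61 to 12.4), 30.7 CPM of ENSRNOG00000049819 (others 18.6 to 21.7), 117 CPM of ENSRNOG00000032871 (others 64.2 to 84.7) and 17.3% of counts in the 100 most abundant genes (others 15.1% to 15.6%). GAERS VPA 4 was at 54.8 CPM of ENSRNOG00000029286 (others of its group 3.60 to 11.4). GAERS control 3 was at 0.230 CPM of ENSRNOG00000020536 (others 0 to 0.0627). NEC control 7 had a total count of 56568656 (others 30713506 to 37383067). GAERS VPA 7 had 15.3% of counts in the 100 most abundant genes (others 14.4% to 14.7%).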

How the results depend on the processing

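No paired analysis was possible because neither replicate numbers nor litters in the labels tie pups together. The VPA responses of the 3 genes kept their direction and moved by less than the spread between pups under all 37 alternatives each. No interaction passed under any of the 37 for each gene. The strain difference of ENSRNOG00000006237 in controls, near 0, changed sign with RLE (0.0035) and upper-quartile scaling (0.024), without the filter (0.0072) and with DESeq2 (0.0034). Leaving out 1 library moved it from -0.10 to 0.097, that of ENSRNOG00000029286 in controls from -0.20 (without GAERS control 3) to 0.51, and that of ENSRNOG00000038616 in exposed pups from -0.071 to 0.030, none called. The strain difference of ENSRNOG00000029286 in exposed pups ran from -1.48 (without GAERS VPA 4, called) to -0.28, and was -1.33, also called, without the 4 libraries that stood apart. Its r with ENSRNOG00000006237 in exposed pups ran from -0.834 (without GAERS VPA 1, the only setting past the threshold) to -0.540 (without GAERS VPA 4) when 1 library was left out. It was -0.536 without the 4 libraries that stood apart. With the first component as a covariate it was -0.619 in exposed pups and -0.182 in controls. Its r with ENSRNOG00000038616 in controls ran from -0.019 to 0.159 when 1 library was left out and was 0.559 with the first component as a covariate (permutation p = 0.025, adjusted p = 0.172), which gave 0.732 in exposed pups (permutation p = 0.00905, adjusted p = 0.163). The r of ENSRNOG00000038616 with ENSRNOG00000006237 ran from -0.164 to 0.047 in exposed pups when 1 library was left out, and with the first component as a covariate was -0.320 in exposed pups and -0.160 in controls. The slope of that pair was -0.16 with the first component and -0.014 in exposed pups alone, neither called.

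Counts of followers were the least stable results. For ENSRNOG00000029286 they were 894 without the filter, 301 with the first component, 1 with ENSRNOG00000006237 as a covariate, 601 in exposed and 0 in control pups, 4 without the 4 libraries that stood apart, and 60 (without GAERS VPA 4) to 2934 (without NEC control 3) when 1 library was left out. Those without NEC VPA 5, NEC VPA 6 and GAERS VPA 2 were 884, 813 and 886. For ENSRNOG00000038616 they were 2550 with the first component, 19 in exposed pups, 0 without the 4 libraries (edgeR, 2557 at an unadjusted p under 0.05), and 0 (without NEC control 3) to 5585 when 1 was left out. For ENSRNOG00000006237 they were 1104 with the first component, 2769 in exposed and 4077 in control pups, and 3499 without the 4 libraries. The cause was not tested; fits on part of the pups have fewer samples. In controls ENSRNOG00000029286 had as few as 13 counts, which limits its r there.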

Other observations

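The ratio of the scarce ENSRNOG00000020536 to ENSRNOG00000029286 was higher in the exposed GAERS pups than in the exposed NEC pups of these data. Neither gene alone was called between exposed strains. GAERS minus NEC was 0.43 (log2, edgeR adjusted p = 0.576) for ENSRNOG00000020536 and -0.47 (edgeR adjusted p = 0.580) for ENSRNOG00000029286. Per 100 counts of ENSRNOG00000029286 there were 3.39 ± 0.87 counts of ENSRNOG00000020536 in exposed NEC pups (SD, n = 7, range 2.33 to 5.05) and 6.83 ± 1.71 in exposed GAERS pups (SD, n = 7, range 3.74 to 8.93), an exact two-sided permutation p of 0.00175. In GAERS, 6 of 7 pups lay above all NEC pups. The exception was GAERS VPA 1, at 3.74 from 4 counts, with an exact 95% binomial interval of 1.0 to 9.85 that covers counting error only. Summed over controls the ratio was 4.27 in NEC, from 12 counts, and 5.26 in GAERS, from 19 counts. This comparison was chosen after the values were seen, and its p is not adjusted. No other pair of genes was compared in this way, so how often such a difference arises is not known.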
